A study of Mus musculus with 14 samples.

Results

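The mature miRNAs of the miR-297, miR-466, miR-467 and miR-669 families were followed along the mouse epididymis, the duct in which spermatozoa mature after leaving the testis. Every mature miRNA named miR-297, miR-466, miR-467 or miR-669 was taken as a member, whatever its letter, copy number or arm, which gave 62 names of the 999 listed over both count tables. Whole tissue listed 58 of these names among 900, epithelial cells listed 60 among 677, and 56 names were in both. The members were picked by name and not by their own values.

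Small RNA libraries were made from male Swiss mice aged 8 weeks, without any treatment or gene alteration. Whole epididymis was split into caput (the proximal segment, 3 libraries), corpus (2 libraries) and cauda (the distal segment in which spermatozoa are stored, 3 libraries). The second preparation was epithelial cells isolated from each of these 3 segments, with 2 libraries per segment and 14 libraries in all. By the methods of the study, the vessels were perfused before dissection, the RNA of several mice was pooled for a library, and the epithelial cells were collected after other cells had attached to the culture plate.

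miRNAs are short RNAs cut from hairpins of longer transcripts, and each hairpin can give a product from its 5′ arm (5p) and one from its 3′ arm (3p). The 4 families arise from a large repeated array in an intron of Sfmbt2, which codes for a Polycomb group protein and is expressed from the paternal allele in extraembryonic tissues. Bases 2 to 8 of a mature miRNA, its seed, pair with target mRNAs and largely set which mRNAs it represses. The array is known from rodents and is best studied in placenta and embryonic stem cells.

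RefSeq placed 82 hairpins of the 4 families on GRCm38, and 72 of them lay inside Sfmbt2 on chromosome 2. All 72 lay on the + strand, as Sfmbt2 does, in a single intron at chr2:10461473-10523944, which is intron 10 of the transcript Sfmbt2-201. They covered 51.6 kb of that intron, and 0 of them overlapped an exon of Sfmbt2. The array held 29 miR-669, 24 miR-466, 14 miR-467 and 5 miR-297 hairpins. Several were repeated, with 12 hairpins named Mir669a, 10 named Mir467a and 8 named Mir466b, and starts of neighbouring Mir467a copies lay a median of 2462 bases apart. The median gap between neighbouring hairpins of any family was 209 bases.

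**Figure D1:**
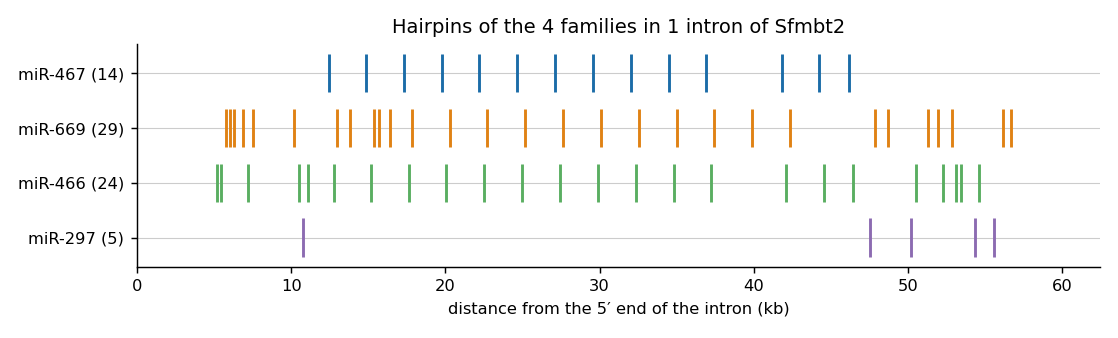
Positions of the 72 hairpins inside Sfmbt2, as distance in kb from the 5′ end of the intron, with 1 row per family and 1 line per hairpin (number of hairpins in brackets). The miR-467, miR-466 and miR-669 hairpins alternate at a regular spacing through the middle of the array, and 4 of the 5 miR-297 hairpins lie in its distal part.

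The other 10 hairpins were scattered over other chromosomes. Members with hairpins inside Sfmbt2 only held 99.2% of the member counts of whole tissue and 99.1% of those of epithelial cells. The RefSeq table of mature miRNAs (GRCm38.p6) matched 4 of the 62 member names, all with a hairpin outside Sfmbt2. They are shown because no sequence was matched for the other member names. They carry the same family names while lying elsewhere, and their counts stayed near 0, as did those of many names of the array (seed in capitals).
miR-466k: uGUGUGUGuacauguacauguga
miR-467h: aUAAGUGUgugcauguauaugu
miR-466j: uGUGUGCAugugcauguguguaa
miR-466i-3p: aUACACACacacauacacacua
The first lies at chr3:85467396-85467418, the second at chr9:115381898-115381919, the third at chr10:60960802-60960824 and the fourth at chr13:17747552-17747573, all on the + strand. By GENCODE the hairpin of miR-466k lies within Gm37240, a gene of the other strand, and that of miR-466i within Cdk13, likewise of the other strand, while the hairpins of miR-467h and miR-466j overlap no annotated gene. Their 4 seeds differ from each other. No library held more than 6 counts of miR-466i-3p, and none held more than 1 count of miR-466k or miR-466j. miR-467h, listed for epithelial cells alone, was at 0 counts in all 6 libraries, which allows up to 3 counts.

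Totals ran from 1243398 to 2135501 counts in whole tissue and from 89039 to 362867 in epithelial cells. At these depths 10 counts correspond to between 4.68 and 8.04 CPM (a count relative to the total of its library) in whole tissue and between 27.6 and 112 CPM in epithelial cells, so that low members could be followed in whole tissue only. Identified is used for a miRNA with a mean above 10 counts over the libraries of a segment. Over all miRNAs, libraries of the same segment differed by between 11.0 and 75.5 times what counting noise gives (chi-square per degree of freedom), and over the members alone this value lay between 0.287 and 1.57 in the 8 pairs with enough counts. The value grows with the counts, so that the low members and the abundant miRNAs cannot be compared by it. The study calls its replicates biological in one place and technical in another. Its methods name fewer replicates than the whole tissue table holds for caput and cauda, and they also say that libraries were analyzed in triplicate. Each library was counted as 1 replicate here, and the SDs and p-values measure the spread between these libraries. The markers of other cell types moved along the duct too. In whole tissue the summed level of the 4 smooth muscle miRNAs (miR-143 and miR-145) was 45414 to 58957 CPM in the caput and 248630 to 270480 CPM in the cauda, and that of the 5 epithelial miRNAs of the miR-200 family was 17128 to 18287 CPM (caput), 17005 to 17422 (corpus) and 8070 to 9546 (cauda). In the isolated epithelial cells the smooth muscle list went from 127990 to 186960 CPM (caput) to 185000 to 319300 CPM (cauda), and was thus not depleted there. The epithelial list stood there at 14552 to 15344 CPM (caput), 17323 to 20014 (corpus) and 12712 to 21797 (cauda). In whole tissue the 5 leukocyte miRNAs went from 863 to 990 CPM in the caput to 2129 to 2209 CPM in the cauda, and the 5 miRNAs of male germ and ciliated cells (miR-34b, miR-34c and miR-449a) from 3298 to 4315 CPM to 9401 to 11321 CPM. The same 2 lists went from 449 to 766 CPM to 1504 to 1614 CPM and from 3580 to 3751 CPM to 1829 to 6054 CPM in epithelial cells. Endothelial miRNAs (miR-126) went from 12421 to 16309 CPM in the caput to 17806 to 19295 CPM in the cauda of whole tissue and from 24376 to 31664 CPM to 53723 to 54535 CPM in epithelial cells, and those of red blood cells (miR-451 and miR-144) from 20.1 to 27.6 CPM to 115 to 268 CPM and from 123 to 152 CPM to 341 to 427 CPM. No marker of these lists was at 0 over a preparation.

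The summed level of the members was highest in the caput and lowest in the cauda in both preparations. In whole tissue the caput had 549 ± 26.2 CPM of library totals (SD, n = 3), the corpus 232 ± 3.37 CPM (n = 2) and the cauda 137 ± 16.1 CPM (n = 3). In epithelial cells the caput had 595 ± 31.7 CPM, the corpus 218 ± 41.2 CPM and the cauda 160 ± 41.9 CPM (SD, n = 2 each). These sums rest on 224 and 186 counts (caput), 24 and 22 (corpus) and 37 and 34 (cauda). The caput libraries lay above all corpus and cauda libraries in each preparation, whereas corpus and cauda overlapped by 1 library in epithelial cells. The cauda thus held 25% of the caput level in whole tissue and 26.9% in epithelial cells (an exact two-sided permutation test of caput against cauda in whole tissue gave p = 0.1, the smallest that 3 libraries against 3 allow). With counts scaled by TMM factors (trimmed means of the ratios between libraries), the cauda held 19.7% and 23.2% of the caput level. At their highest the members made up 0.0617% of the counts of a library. A lower level in a bulk preparation can come from fewer cells of a type or from less RNA per cell, and these cannot be told apart here.

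**Figure D2:**
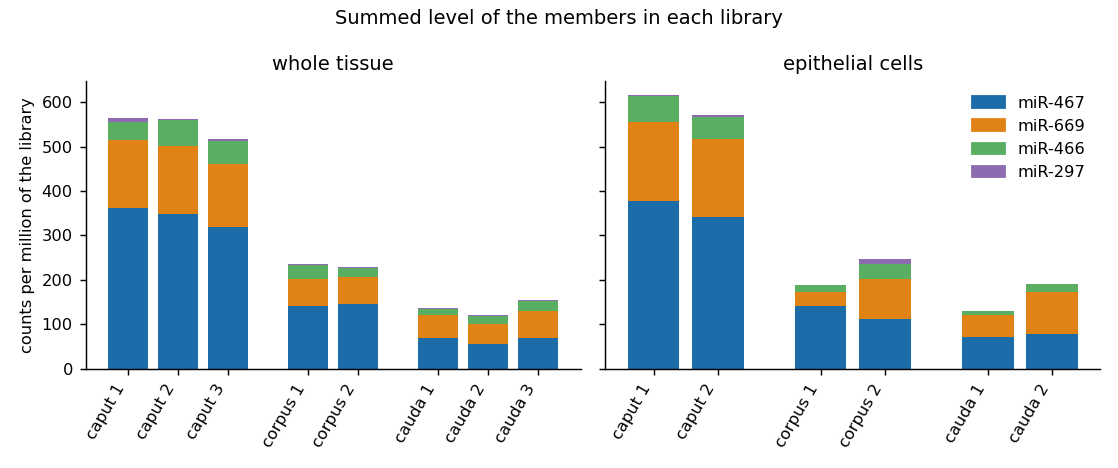
Summed level of the members in each library, in CPM of library totals, for whole tissue (left) and epithelial cells (right), with each bar split by family. Caput bars stand between 518 and 617 CPM, corpus bars between 189 and 247 and cauda bars between 121 and 190.

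The sum was also set against the epithelial markers. Per 1000 counts of the 5 epithelial markers, the caput of whole tissue held 30.8 ± 0.591 member counts, the corpus 13.5 ± 0.0355 and the cauda 15.9 ± 2.03. On this scale caput libraries lay above all others, and the corpus was not above the cauda. The scale itself moved, since the markers stood at 17005 to 17422 CPM in the corpus of whole tissue and at 8070 to 9546 CPM in the cauda. By qRT-PCR the study reports a fall of miR-200c-3p, which is among these markers, from proximal to distal segments. The order of corpus and cauda on this scale thus depends on the markers too, and whether their level per epithelial cell changed was not tested. In epithelial cells the caput held 39.8 ± 0.629, the corpus 11.6 ± 1.02 and the cauda 9.49 ± 1.11. The corpus and cauda values rest on at most 37 member counts per library, and their SDs need not cover the counting error. The part of the other cell types in the levels was not tested.

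The 4 families contributed unequally. In whole tissue miR-467 gave 343 ± 21.9 CPM in the caput, miR-669 gave 150 ± 6.78 CPM, miR-466 gave 49.6 ± 8.70 CPM and miR-297 gave 5.75 ± 2.62 CPM (library totals, SD, n = 3). In the cauda they stood at 64.4 ± 7.71, 52.2 ± 8.47, 18.8 ± 5.11 and 2.09 ± 0.744 CPM. Caput and cauda libraries did not overlap for any of the 4 sums. The make-up of the pool shifted at the same time, with miR-467 holding 61.5 to 64.1% of the member counts of caput libraries and 44.2 to 50.8% of those of cauda libraries, and miR-669 holding 27.3 to 27.4% and 36.2 to 39.6%.

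Of the 58 members listed for whole tissue, 15 were identified. The caput had all of them, the corpus 7 and the cauda 6. They held 87.2% of the member counts. Identified members were 6 of 9 miR-467 names, 8 of 17 miR-669 names, 1 of 26 miR-466 names and 0 of 6 miR-297 names. Of the 5p products 11 of 29 were identified, of the 3p products 3 of 25. The values of 20 members included fractions, taken as reads divided between names, and some names had the same value in every library, so that the 15 identified names stood for 13 distinct measurements. The pairs were miR-669a-5p with miR-669p-5p, and miR-669a-3p with miR-669o-3p, and the members of a pair cannot be told apart. Reads of copies within 1 name, such as the 10 Mir467a hairpins, cannot be assigned to a copy either. The threshold of 10 cut between close neighbours, since miR-669f-5p was identified with a caput mean of 13.4 counts and miR-466b-3p, miR-466c-3p and miR-466p-3p, which share reads, were not with 9.78 each. Undivided, the reads of these 3 names came to a caput mean of 29.3 counts and those of miR-466a-3p and miR-466e-3p to 16.7, so that the number of identified miR-466 names depends on the division of reads.

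To ask how the members changed along the duct, segments were compared by limma-voom with TMM factors across all identified miRNAs, and calls needed a false discovery rate (FDR, the adjusted p) under 0.05 together with a 2-fold change or more. From caput to cauda of whole tissue 13 of the 15 members tested fell (12 of 13 distinct measurements), and 0 rose. Among all 355 miRNAs tested 25.4% were called lower in the cauda. Of the 15 members 9 were tested through the caput alone, so that their mean count could only be lower in the cauda. Of the 6 with a mean above 10 in the cauda itself 4 fell, where 19.4% of the 325 miRNAs chosen in the same way did so. Without TMM factors the calls over all miRNAs shifted from 99 higher and 90 lower to 115 higher and 65 lower, and the median of all miRNAs moved by 0.35 on the log2 scale.

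miR-467a-5p, named by 10 hairpins of the array, was the most abundant member. It had 378, 355 and 417 counts (caput), 96 and 106 (corpus) and 63, 34 and 55 (cauda) in whole tissue. Every caput library was above every corpus library, and every corpus library above every cauda library. Its TMM-scaled level was 239 ± 8.78 CPM in the caput (SD, n = 3) and 28.6 ± 6.63 CPM in the cauda (n = 3), a log2 change of -3.07 ± 0.17 (SE), or 8.37-fold lower, with an adjusted p of 1.08e-07 (limma). It alone held 36.6 to 38.5% of the member counts of caput libraries and 19.2 to 25.8% of those of cauda libraries.

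miR-467c-5p, from a single hairpin, had 86, 99 and 105 counts (caput), 26 and 32 (corpus) and 14, 11 and 10 (cauda). Its segments did not overlap, and it changed by -3.12 ± 0.24 from caput to cauda (log2 ± SE, adjusted p = 1.01e-06, limma). miR-467d-5p had 63, 55 and 60 counts (caput), 22 and 26 (corpus) and 11, 8 and 7 (cauda). It was likewise ordered without overlap, with a change of -2.84 ± 0.26 (adjusted p = 4.77e-06, limma).

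miR-669a-5p and miR-669p-5p, which share their reads and, by name, 14 hairpins of the array between them, each had 49, 47.5 and 58.3 counts (caput), 6.33 and 4.50 (corpus) and 8.33, 6.50 and 4.67 (cauda). The fall was complete in the corpus, where the values overlapped those of the cauda. The change from caput to cauda was -3.07 ± 0.29 (log2 ± SE, adjusted p = 5.04e-06, limma).

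miR-467e-5p fell less than the other abundant miR-467 members. It had 60, 47 and 59 counts (caput), 16 and 21 (corpus) and 21, 17 and 19 (cauda). Caput libraries stood clear of the rest, while the TMM-scaled corpus and cauda levels were 12.9 ± 1.29 CPM (SD, n = 2) and 10.8 ± 0.368 CPM (n = 3). The change from caput to cauda was -1.64 ± 0.20 (log2 ± SE, adjusted p = 3.17e-05, limma).

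miR-669c-5p had 50, 63 and 70 counts (caput), 23 and 28 (corpus) and 18, 11 and 18 (cauda). Its segments did not overlap, and it changed by -2.07 ± 0.24 (adjusted p = 2.57e-05, limma). miR-669o-5p had 32, 25 and 24 counts (caput), 7 and 18 (corpus) and 12, 7 and 10 (cauda). On the TMM scale its corpus libraries (5.23 and 11.8 CPM) overlapped those of the cauda (4.31 to 6.18 CPM), and its change from caput to cauda was -1.56 ± 0.35 (adjusted p = 0.00231, limma).

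**Figure D3:**
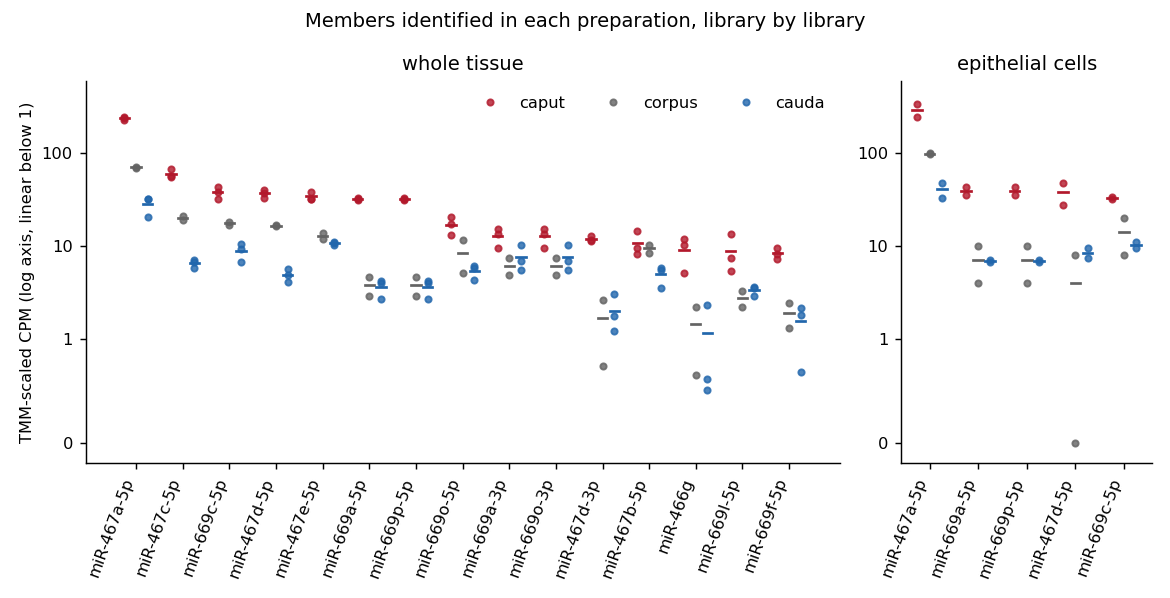
TMM-scaled CPM (log axis, linear below 1) of the members identified in whole tissue (15 names, left) and in epithelial cells (5 names, right), with 1 point per library and a bar at the mean of each segment. The caput points lie above the cauda points for every name shown except miR-669a-3p and miR-669o-3p in whole tissue, whose cauda points reach 10.3 CPM and whose caput points begin at 9.65 CPM.

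The remaining members called in whole tissue had caput means of 13.4 to 19.3 counts. miR-466g, miR-467d-3p, miR-669f-5p, miR-467b-5p and miR-669l-5p changed from caput to cauda by log2 values between -2.90 (miR-466g) and -1.05 (miR-467b-5p), with adjusted p from 0.000365 (miR-467d-3p) to 0.0253 (miR-669l-5p, limma). miR-467b-5p lost its call with library totals, DESeq2's test or DESeq2's size factors, and without caput replicate 2, cauda replicate 1 or corpus replicate 2, where its log2 change stayed at -0.70 or lower. miR-669l-5p lost it with library totals or DESeq2's test and without caput replicate 1 or any 1 of the 3 cauda libraries, with a log2 change of -0.82 or lower. miR-669a-3p and miR-669o-3p, each with 15, 22.5 and 24.5 counts in the caput and 13.5, 9 and 17.5 in the cauda, overlapped between the segments and did not pass the test (log2 change -0.70 ± 0.31, adjusted p = 0.0589, limma). Every cauda library was below every caput library for 13 of the 15 members tested, and for 41.1% of all 355 miRNAs tested. As 9 of the 15 members were tested through the caput alone, the filter favours this order, and the 2 shares cannot be compared.

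From caput to corpus of whole tissue 11 of the 15 members fell (10 of 13 distinct measurements) and 0 rose, where 15.9% of the 334 miRNAs tested were called lower. Of the 15 members 8 were tested through the caput alone, so that their mean count could only be lower in the corpus. Of the 7 with a mean above 10 in the corpus itself 5 fell, where 11.8% of the 304 miRNAs chosen in the same way did so. The changes of miR-669a-5p and miR-669p-5p (-3.12 ± 0.37, adjusted p = 7.25e-05) and miR-467d-3p (-2.73 ± 0.56, adjusted p = 0.00214) were the largest, and miR-467a-5p changed by -1.75 ± 0.16 (adjusted p = 1.71e-05, limma, log2 ± SE). miR-467b-5p did not pass, with a log2 change of -0.12 and a 95% confidence interval from -0.90 to 0.66, which became 0.21 with library totals. With library totals the calls over all miRNAs were 76 higher and 35 lower in place of 47 higher and 53 lower, and 8 members were called. DESeq2's test called 6.

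From corpus to cauda of whole tissue 9 members were tested, 3 fell and 0 rose, where 12.9% of the 341 miRNAs tested were called lower. miR-467a-5p changed by -1.31 ± 0.20 (adjusted p = 0.000336), miR-467c-5p by -1.57 ± 0.28 and miR-467d-5p by -1.72 ± 0.30 (both adjusted p = 0.00094, limma). miR-669c-5p stopped just short of the fold threshold with a log2 change of -1.0 ± 0.29 (adjusted p = 0.016, limma). miR-467e-5p differed little between these segments (-0.25, 95% confidence interval from -0.84 to 0.33). The change of miR-669a-3p and miR-669o-3p was 0.26, with an interval from -0.69 to 1.2 that still includes a 2-fold rise. These 3 did not pass the test. The comparisons of the 3 segments share their libraries, so that their values are given side by side and not counted as separate support.

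**Figure D4:**
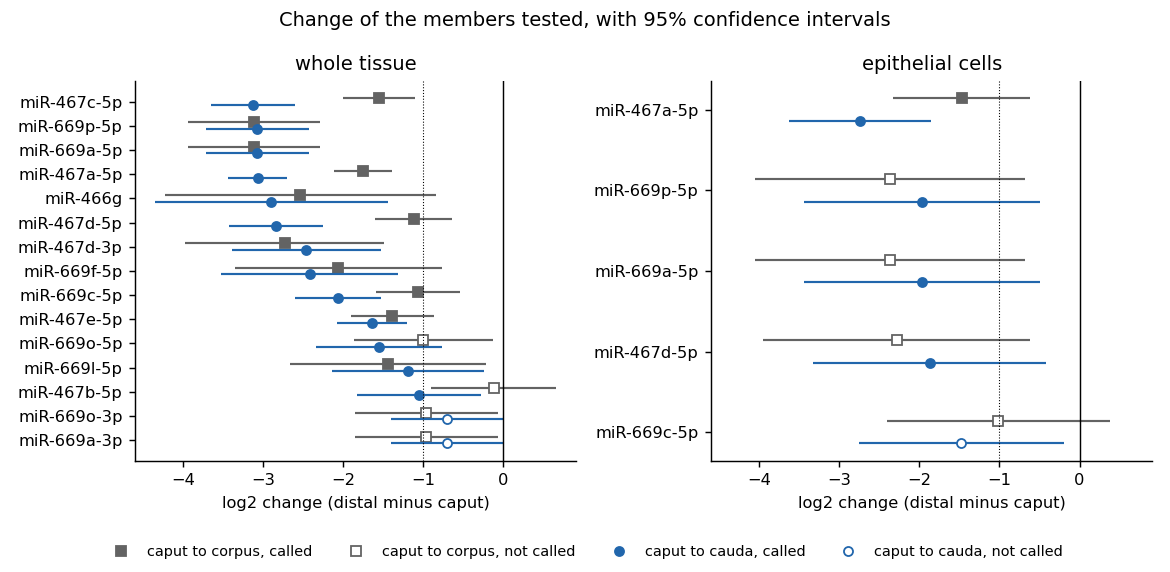
Log2 change from caput to corpus (squares) and from caput to cauda (circles) of the members tested in whole tissue (left) and epithelial cells (right), with 95% confidence intervals. Filled symbols were called, and the dotted line marks a 2-fold fall. In whole tissue 13 of 15 circles are filled, and in epithelial cells 4 of 5.

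The members of the intron did not all fall by the same amount. Relative to miR-467a-5p, miR-467e-5p stood at 15.9, 13.2 and 14.2% (caput libraries), 16.7 and 19.8% (corpus) and 33.3, 50.0 and 34.5% (cauda). miR-669c-5p stood at 13.2 to 17.8% of miR-467a-5p in the caput and 28.6 to 32.7% in the cauda. For both the caput and cauda libraries did not overlap, and the exact two-sided permutation test gave p = 0.1 for each, the smallest it allows. The ratios of miR-467c-5p (22.8 to 27.9% in the caput and 18.2 to 32.4% in the cauda), miR-669a-5p (13.0 to 13.99% and 8.48 to 19.1%) and miR-467d-5p (14.4 to 16.7% and 12.7 to 23.5%) overlapped between caput and cauda, with exact permutation p of 0.8, 0.8 and 0.7. In the corpus miR-669a-5p was at 6.60 and 4.25% of miR-467a-5p, below all caput and cauda libraries. These 5 ratios were not adjusted for their number, and they do not depend on the scaling of the libraries.

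**Figure D5:**
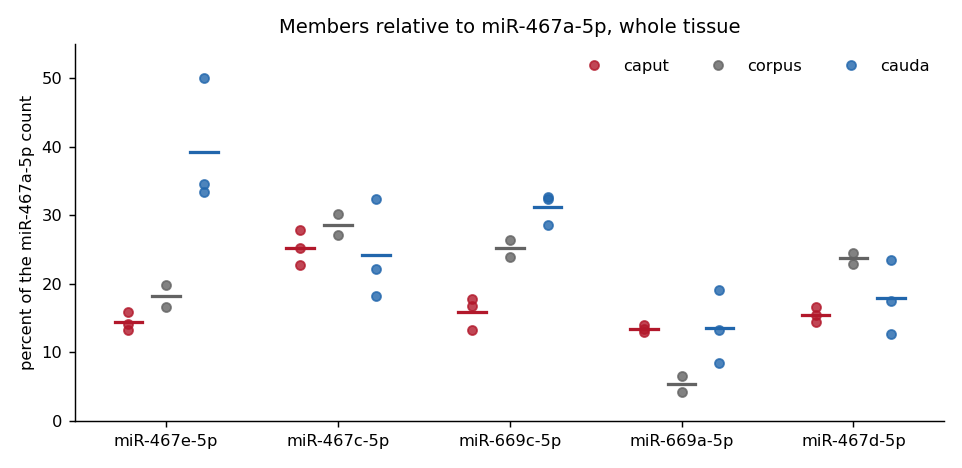
Counts of 5 members as percent of the miR-467a-5p count of the same whole tissue library, with 1 point per library and a bar at the mean of each segment. miR-467e-5p and miR-669c-5p are higher in every cauda library than in every caput library, and miR-669a-5p is lowest in the 2 corpus libraries.

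The arm that gave most counts differed between the families. Over all libraries of whole tissue the 5p product had more counts in 4 of 4 miR-467 hairpin names listed with both arms, with 2399 counts for 5p and 99 for 3p in all. It also had more in 6 of 6 miR-669 names (403 and 256 counts, where the 5p sum leaves out the part of the shared reads given to miR-669p-5p) and in 3 of 3 miR-297 names (42 and 7 counts). For miR-669o this depends on the division of reads, since it had 135 counts of 5p and 119.5 of 3p, while the undivided reads of miR-669a-3p and miR-669o-3p came to 239. In miR-466 the 3p product had more counts in 7 of 10 names (72.3 counts for 5p and 286 for 3p), which rest on 4 distinct 3p measurements, that of miR-466i from outside Sfmbt2 among them. Epithelial cells had more 5p counts in 4 of 4 miR-467 names and in 5 of 6 miR-669 names, with miR-669m at 0.5 counts of 5p and 1 of 3p, and more 3p counts in 7 of 10 miR-466 names (4 distinct 3p measurements). There too miR-669o depends on the division of reads, with 17 counts of 5p, 11 of 3p and 22 of the undivided 3p reads. The strongest bias was that of miR-467a, with 1504 counts of 5p and 3 of 3p in whole tissue.

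The 43 members of whole tissue that were not identified reached at most 12 counts in a library, and 22 members had no library above 3 counts. Taking all 58 members without regard to level, 50 had a higher mean CPM of library totals in the caput than in the cauda, 7 a lower one and 1 the same, where 39.6% of all 900 listed miRNAs were higher in the caput. On the TMM scale 52 were higher, 5 lower and 1 the same, where 45.8% of all 900 were higher. With the test opened to every miRNA that had any count, 25 of the 58 members were called lower in the cauda and 0 higher, among them 9 of 26 miR-466, 7 of 9 miR-467, 8 of 17 miR-669 and 1 of 6 miR-297 names, where 13.2% of all 878 miRNAs were called lower. The median log2 change was -1.30 over the 58 members and -0.10 over all miRNAs. Low counts weigh on these values, and names that share reads count more than once. miR-669d-5p, with 12, 5 and 6 counts in the caput and 5, 5 and 10 in the cauda, was among the highest members without a segment mean above 10, and it is named here after its values were seen.

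In the isolated epithelial cells 5 of the 60 members were identified. The caput had all 5, the corpus 1 and the cauda 0, and 19 members were at 0 in every library. These numbers also follow depth, since 10 counts correspond to 27.6 and 30.8 CPM in the caput libraries. In the corpus they correspond to 78.7 and 112 CPM, and in the cauda to 35.3 and 55.8 CPM. The 5 names stood for 4 distinct measurements and held 65.2% of the member counts. From caput to cauda 4 of the 5 fell (3 of 4 distinct measurements), where 12.0% of the 216 miRNAs tested were called lower. All 5 were tested through the caput alone. Only 1 of them, miR-467a-5p, stayed called with DESeq2's test, with library totals and without any 1 of the 4 caput and cauda libraries. With library totals the calls over all miRNAs went from 30 higher and 26 lower to 39 higher and 19 lower.

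miR-467a-5p had 108 and 76 counts (caput), 12 and 10 (corpus) and 13 and 7 (cauda) in epithelial cells. The TMM-scaled level went from 290 ± 64.5 CPM (caput) through 99.7 ± 3.36 CPM (corpus) to 40.9 ± 10.6 CPM (cauda; SD, n = 2 each), with no overlap between segments. It fell from caput to cauda (log2 change -2.74 ± 0.38, adjusted p = 0.00125, limma) and from caput to corpus (-1.47 ± 0.37, adjusted p = 0.0249), and its change from corpus to cauda did not pass (-1.27 ± 0.47, adjusted p = 0.107). The call from caput to corpus was lost without any 1 of the 4 caput and corpus libraries, and over the alternatives and the libraries left out its log2 change stayed between -1.66 and -1.22.

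The other 3 measurements rested on few distal counts. miR-467d-5p had 9 and 15 counts (caput), 1 and 0 (corpus) and 2 and 2 (cauda), miR-669a-5p and miR-669p-5p each had 11.3 and 13.7, then 0.5 and 1, then 1.83 and 1.5, and miR-669c-5p had 11 and 10, then 1 and 2, then 3 and 2. On the TMM scale each caput library was above each corpus and cauda library for these 3 and for miR-467a-5p, as for 24.1% of the 216 miRNAs tested, and all of them entered the test through the caput alone. From the summed counts the caput level of miR-467d-5p was 4.03 times that of the cauda in CPM of library totals, with a 95% counting interval from 1.39 to 16.0. The corresponding ratio was 5.04 (1.71 to 29.0) for miR-669a-5p and 2.82 (1.04 to 9.58) for miR-669c-5p. In the fit miR-467d-5p changed from caput to cauda by -1.87 ± 0.63 (adjusted p = 0.0462) and miR-669a-5p by -1.97 ± 0.64 (adjusted p = 0.0412), while miR-669c-5p did not pass (-1.48 ± 0.56, adjusted p = 0.0651, limma). Both calls were lost with a replicate block, library totals or DESeq2's test and without caput replicate 1, cauda replicate 1 or cauda replicate 2, that of miR-467d-5p also with DESeq2's size factors or without the filter on low counts, and that of miR-669a-5p also without caput replicate 2. Without caput replicate 2 miR-467d-5p had a caput mean of 9 counts and was not tested. Over the alternatives and the libraries left out, as far as tested, the log2 change stayed between -2.19 and -1.60 for miR-467d-5p and between -2.23 and -1.70 for miR-669a-5p.

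From caput to corpus of epithelial cells 1 of the 5 members fell, miR-467a-5p, where 5.85% of the 205 miRNAs tested were called lower. With reads shared between names summed 2 of 4 were called. Without the filter on low counts 5 were called, out of every member with at least 1 count. The share over all miRNAs is not given for these 2 settings. The count was 0 when either caput library or the first corpus library was left out and 2 without the other corpus library, which were miR-669a-5p and miR-669p-5p, 1 measurement, while miR-467a-5p was not called there. With library totals the calls over all miRNAs were 18 higher and 9 lower in place of 13 higher and 12 lower, and 18 higher and 10 lower with DESeq2's size factors. From corpus to cauda 1 member was tested and 0 were called, with 1 at an unadjusted p below 0.05 (limma) and 0 called by edgeR or DESeq2, where 4.17% of the 192 miRNAs tested were called lower.

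Whether the fall from caput to cauda differed between whole tissue and epithelial cells was tested as an interaction over the 194 miRNAs identified in both tables. It was called for 32.0% of all 194 and for 0 of the 5 members (0 at an unadjusted p below 0.05 by limma, and 0 called by edgeR). The difference, epithelial minus tissue change in log2, was 0.36 for miR-467a-5p, with a 95% confidence interval from -0.41 to 1.13, and it turned to -0.20 without epithelial caput replicate 2 and to -0.07 without epithelial cauda replicate 1. It was 1.06 (-0.14 to 2.25) for miR-467d-5p, 1.18 (-0.18 to 2.55) for miR-669a-5p and miR-669p-5p and 0.65 (-0.48 to 1.78) for miR-669c-5p. These intervals still include differences of more than 2-fold.

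For comparison, 2 other large miRNA clusters were taken by name as well. From caput to cauda of whole tissue 19 of 20 miRNAs tested of the X-linked cluster and 28 of 32 of the imprinted Dlk1-Dio3 cluster rose and 0 fell, where 27.9% of the 355 miRNAs tested were called higher. In epithelial cells 5 of 8 and 9 of 9 rose, where 13.9% of the 216 miRNAs tested were called higher. From corpus to cauda of epithelial cells 0 of 8 miRNAs of the X-linked cluster were called, with 6 of them lower and a median log2 change of -0.30. The filter lets in members through the caput and other miRNAs through the cauda, so that neither the counts nor the medians of the lists were set against each other, and no test of the difference between the clusters was made.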

How the data were processed

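The authors aligned reads to the mouse genome (mm10) and to mature miRNAs, and the submitters' processing notes name CASAVA 1.8.2, Bowtie 1.1.1 and limma. For each preparation they deposited a table of expected counts, 1 row per mature miRNA, without normalization. Fractions mark reads divided between names, and 0.001 had been added to each epithelial value and was removed here. How shared reads were divided is not given in the sources used here.

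Counts were rounded, scaled by TMM factors from edgeR 4.0.16, and limma-voom of limma 3.58.1 was run in R 4.3.3 as 1 fit per preparation with a mean per segment. miRNAs with a mean count above 10 in either segment compared were tested, with Benjamini-Hochberg adjustment over all of them. The interaction was fitted over all 14 libraries. Alternatives were edgeR's quasi-likelihood test, DESeq2 1.42.0, other scalings and filters, only 2 segments, a replicate block and each library left out. Scripts were tested on simulated data. Library totals ranged from 89039 to 2135501, and counting intervals cover counting error only.

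Members identified in either preparation are named, with every library's value for the 8 most abundant called members of whole tissue and for those of epithelial cells. The members, the cluster lists and the tests were chosen with earlier results of these data known. Hairpin positions came from RefSeq and GENCODE vM21 and were matched to mature names by name.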

Additional observations from a re-analysis of the deposited data

How the results depend on the processing

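The number of members called moved with the filter, the test and the libraries used. With no filter on low counts 58 members were tested from caput to cauda of whole tissue, and 13.2% of all 878 miRNAs were called lower. From caput to corpus DESeq2 called 37 of all 334 miRNAs lower, and 31 were called lower with at least 10 counts in every library. The other counts below are given without the share over all miRNAs and describe the settings alone. From caput to cauda of whole tissue, 25 members were called with no filter on low counts and 4 of 4 when at least 10 counts were required in every library, and 11 to 15 without 1 library. From caput to corpus, 6 were called by DESeq2, 4 of 4 with at least 10 counts in every library and 8 to 12 without 1 library, and from corpus to cauda 3 to 4 without 1 library. In epithelial cells, 1 was called from caput to cauda by DESeq2, with library totals or with the replicate block, and 1 to 5 without 1 library. From caput to corpus 5 were called without a filter, 2 with shared reads summed and 0 to 2 without 1 library. Members identified in epithelial cells were 3 with a count above 10 in every library of a segment and 1 after scaling to the smallest total. The filter at 10 counts in every library left no member to test in epithelial cells, and the corpus to cauda test there had none without corpus replicate 1. With TMM factors the cauda sum was 19.7% of the caput sum in whole tissue. The change of miR-467b-5p from caput to corpus became 0.21 with library totals, 0.15 without caput replicate 2 and 0.09 without corpus replicate 2 (from -0.26 to 0.15 over the libraries left out), and the interaction of miR-467a-5p became -0.20 without caput replicate 2 and -0.07 without cauda replicate 1 of the epithelial cells (from -0.20 to 0.487 over the libraries left out). The causes were not tested, beyond the smaller number of miRNAs or libraries that a setting leaves. Same-numbered libraries correlated between -0.0204 and 0.222 in whole tissue and between -0.226 and 0.176 in epithelial cells. With so few libraries per segment these values cannot show whether the numbers pair the libraries. The block gave 13, 11 and 4 calls in the 3 whole tissue comparisons (caput to cauda, caput to corpus, corpus to cauda). With the numbers of the epithelial cauda crossed, an alternative chosen after seeing the data like the summing of shared reads, the block called 4 members from caput to cauda and 0 from corpus to cauda. DESeq2 gave no adjusted p for 4 of the 5 members from caput to corpus of epithelial cells. At 10 counts, epithelial libraries resolve no level below 27.6 CPM.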
